A study of Mus musculus with 21 samples.

Results

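The neuronal microtubule genes are 10 genes whose proteins bind, build or take apart the microtubules of young neurons: Mapt, Map2, Map1b, Dcx, Dclk1, Stmn1, Stmn2, Stmn3, Stmn4 and Tubb3. They were chosen by symbol, and every probe set that the platform annotation gives to one of them was used, which made 32 of the 45101 probe sets of the array. Of these, 31 passed a filter on dim probe sets, and all 10 genes were among the 12367 genes tested. The series holds 21 Affymetrix Mouse Genome 430 2.0 arrays of medulloblastoma cells sorted on CD15. From tumours titled Math1-GFP there were 4 arrays of CD15 positive and 5 of CD15 negative cells, and from tumours titled conventional there were 6 arrays of each. All were cerebellar tumours of Patched mice, in which loss of the receptor Ptch1 releases Hedgehog signalling. Among the sample titles, only the conventional ones name Patched. Math1, now called Atoh1, is made in the precursors of cerebellar granule neurons, GFP is a fluorescent protein, and CD15 is a carbohydrate on the cell surface. The labels used here give no age, strain, Patched allele or treatment, and do not state whether arrays of a group stand for separate mice, so a p-value measures the spread between arrays, part of which may be technical. The free-text descriptions of all Math1-GFP samples name the conventional tumour type, and the titles were followed.

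Microtubules are hollow filaments of alpha- and beta-tubulin that grow and shrink at their ends, and a neuron that leaves the cell cycle needs them to migrate and to extend an axon and dendrites. Tau (Mapt), MAP2 and MAP1B bind along the filament and stabilise it, and doublecortin (Dcx) and its relative doublecortin-like kinase (Dclk1) do so in migrating neurons. Stathmins bind free tubulin dimers and favour disassembly; Stmn1 is found in proliferating as well as neuronal cells, while Stmn2, Stmn3 and Stmn4 are neuronal. Tubb3 is the beta-tubulin commonly used to mark neurons.

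A level here is the deposited signal, which has no absolute unit and cannot be set against the level of another probe set, and differences are on the log2(signal + 32) scale, which makes differences of dim probe sets smaller. Genes were represented by their brightest probe set. In these bulk samples, fewer cells of a type and less RNA per cell cannot be told apart. The arrays had median signals between 22.1 and 32.7. All 10 granule neuron lineage markers passed the filter, with Zic1 between 6539 and 14625 and Atoh1 between 343 and 2370, while Mfap4 went down to 24.0 and Cntn2 to 69.6 on single arrays. In conventional CD15 positive cells, 2 of these 10 were lower (Neurod1 and Cntn2) and 1 higher (Gli1). A Ptch1 probe set had signals between 620 and 4258, and whether it lies in a deleted part of the gene is not given, so it checks nothing about the labels. Mitosis markers moved with CD15: summed signals of the 9 measured of 10 were 15999 to 21372 in conventional CD15 positive cells, against 6698 to 13501 in conventional CD15 negative cells. In Math1-GFP tumours these sums were 15666 to 21829 in CD15 positive cells, against 9524 to 13082 in CD15 negative cells. For 9 measured of 10 microglia and macrophage markers, sums were 585 to 11174 in conventional CD15 positive and 247 to 3205 in conventional CD15 negative cells, and in Math1-GFP tumours 286 to 1365 in CD15 positive and 173 to 452 in CD15 negative cells. Sums of 7 measured of 8 astrocyte markers were 950 to 4200 in conventional CD15 positive and 796 to 3877 in conventional CD15 negative cells. In Math1-GFP tumours the astrocyte sums were 1608 to 4871 in CD15 positive and 790 to 1912 in CD15 negative cells. The part of these marker lists in the results below was not tested. Math1-GFP arrays 1 and 2 correlated with the other 7 Math1-GFP arrays at a mean of 0.936 over genes, against 0.971 among those 7, and conventional arrays 2 to 5 correlated with the unnumbered arrays and arrays 6 at 0.928, against 0.956 and 0.968 within these sets.

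The annotation table used here holds upstream sequence of 6 of the 10 genes. Shown are the 250 bases before the first of 2 listed starts of Dcx and before the start of Map2, Tubb3 and Stmn3. These genes were lower together in conventional CD15 positive cells. Also shown are the bases before both listed starts of Dclk1, whose probe sets disagreed. The sequences are from RefSeq, build GRCm38.p6, 5' to 3' on the strand of the gene. Capitals mark matches on either strand to the E-box (CANNTG), the GC box (GGGCGG), the CCAAT box (CCAAT) or the TATA box (TATAAA); no 2 marked matches overlap.
Dcx, chrX:143933220-143933469, - strand: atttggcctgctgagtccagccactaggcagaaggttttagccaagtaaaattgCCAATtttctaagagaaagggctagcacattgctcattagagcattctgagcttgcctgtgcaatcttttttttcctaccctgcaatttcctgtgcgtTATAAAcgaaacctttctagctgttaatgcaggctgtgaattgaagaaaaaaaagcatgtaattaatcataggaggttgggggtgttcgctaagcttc
Map2, chr1:66175079-66175328, + strand: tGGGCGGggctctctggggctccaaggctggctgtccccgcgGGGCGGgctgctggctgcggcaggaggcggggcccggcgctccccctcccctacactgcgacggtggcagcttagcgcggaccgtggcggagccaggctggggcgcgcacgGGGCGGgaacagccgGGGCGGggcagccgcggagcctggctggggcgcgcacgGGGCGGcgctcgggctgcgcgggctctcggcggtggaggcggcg
Tubb3, chr8:123411303-123411552, + strand: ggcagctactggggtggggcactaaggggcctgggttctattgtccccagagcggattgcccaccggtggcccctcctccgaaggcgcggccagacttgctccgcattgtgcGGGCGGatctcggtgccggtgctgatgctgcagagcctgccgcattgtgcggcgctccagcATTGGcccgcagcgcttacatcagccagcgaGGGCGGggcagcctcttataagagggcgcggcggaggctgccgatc
Stmn3, chr2:181314501-181314750, - strand: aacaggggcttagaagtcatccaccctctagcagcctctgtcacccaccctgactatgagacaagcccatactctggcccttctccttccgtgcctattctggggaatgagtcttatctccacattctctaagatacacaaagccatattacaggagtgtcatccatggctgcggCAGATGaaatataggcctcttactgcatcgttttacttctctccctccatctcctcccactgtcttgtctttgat
Dclk1, first start, chr3:55242114-55242363, + strand: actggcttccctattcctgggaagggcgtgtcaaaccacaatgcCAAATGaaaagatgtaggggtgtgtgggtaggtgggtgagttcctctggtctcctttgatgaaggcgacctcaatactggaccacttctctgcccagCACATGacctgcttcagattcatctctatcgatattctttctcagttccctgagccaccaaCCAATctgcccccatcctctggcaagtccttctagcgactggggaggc
Dclk1, second start, chr3:55461478-55461727, + strand: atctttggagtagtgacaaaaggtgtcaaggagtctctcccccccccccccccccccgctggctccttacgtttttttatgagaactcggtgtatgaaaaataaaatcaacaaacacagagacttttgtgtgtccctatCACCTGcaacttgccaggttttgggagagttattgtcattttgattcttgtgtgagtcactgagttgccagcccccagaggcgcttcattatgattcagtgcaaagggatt

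None of these motifs was in all 4 of Dcx, Map2, Tubb3 and Stmn3, and for Mapt, Stmn2 and Stmn4, which were lower with them, no sequence is shown. Map2 had 5 GC boxes, Tubb3 had 2 with 1 CCAAT box, and Stmn3 had 1 E-box. The first Dcx start had 1 CCAAT box and 1 TATA box, and the second, not shown, had 1 TATA box and no CCAAT box. The first Dclk1 start had 2 E-boxes and 1 CCAAT box, and the second had 1 E-box. Among 32851 upstream sequences of this length, 66.2% held an E-box, 32.7% a GC box, 33.8% a CCAAT box and 12.4% a TATA box. A match is only a match of letters, and binding was not measured.

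In conventional tumours, 7 of the 10 genes were lower in CD15 positive than in CD15 negative cells and none was higher (limma, adjusted p under 0.05). Of all genes tested, 8.13% were called, 5.09% lower and 3.05% higher. The median difference of the 10 was -1.12, against -0.017 over all genes tested. The 7 were Mapt, Map2, Dcx, Stmn2, Stmn3, Stmn4 and Tubb3. Fitted on the conventional arrays alone, without the spread shared with Math1-GFP arrays, 5 of the 10 were called. Map1b had a negative difference that was not called, and Dclk1 and Stmn1 had differences near 0. The values of Mapt, Dcx and Stmn4 did not overlap between the groups, 3 of 10 genes, where 2.52% of all genes were lower without overlap.

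**Figure D1:**
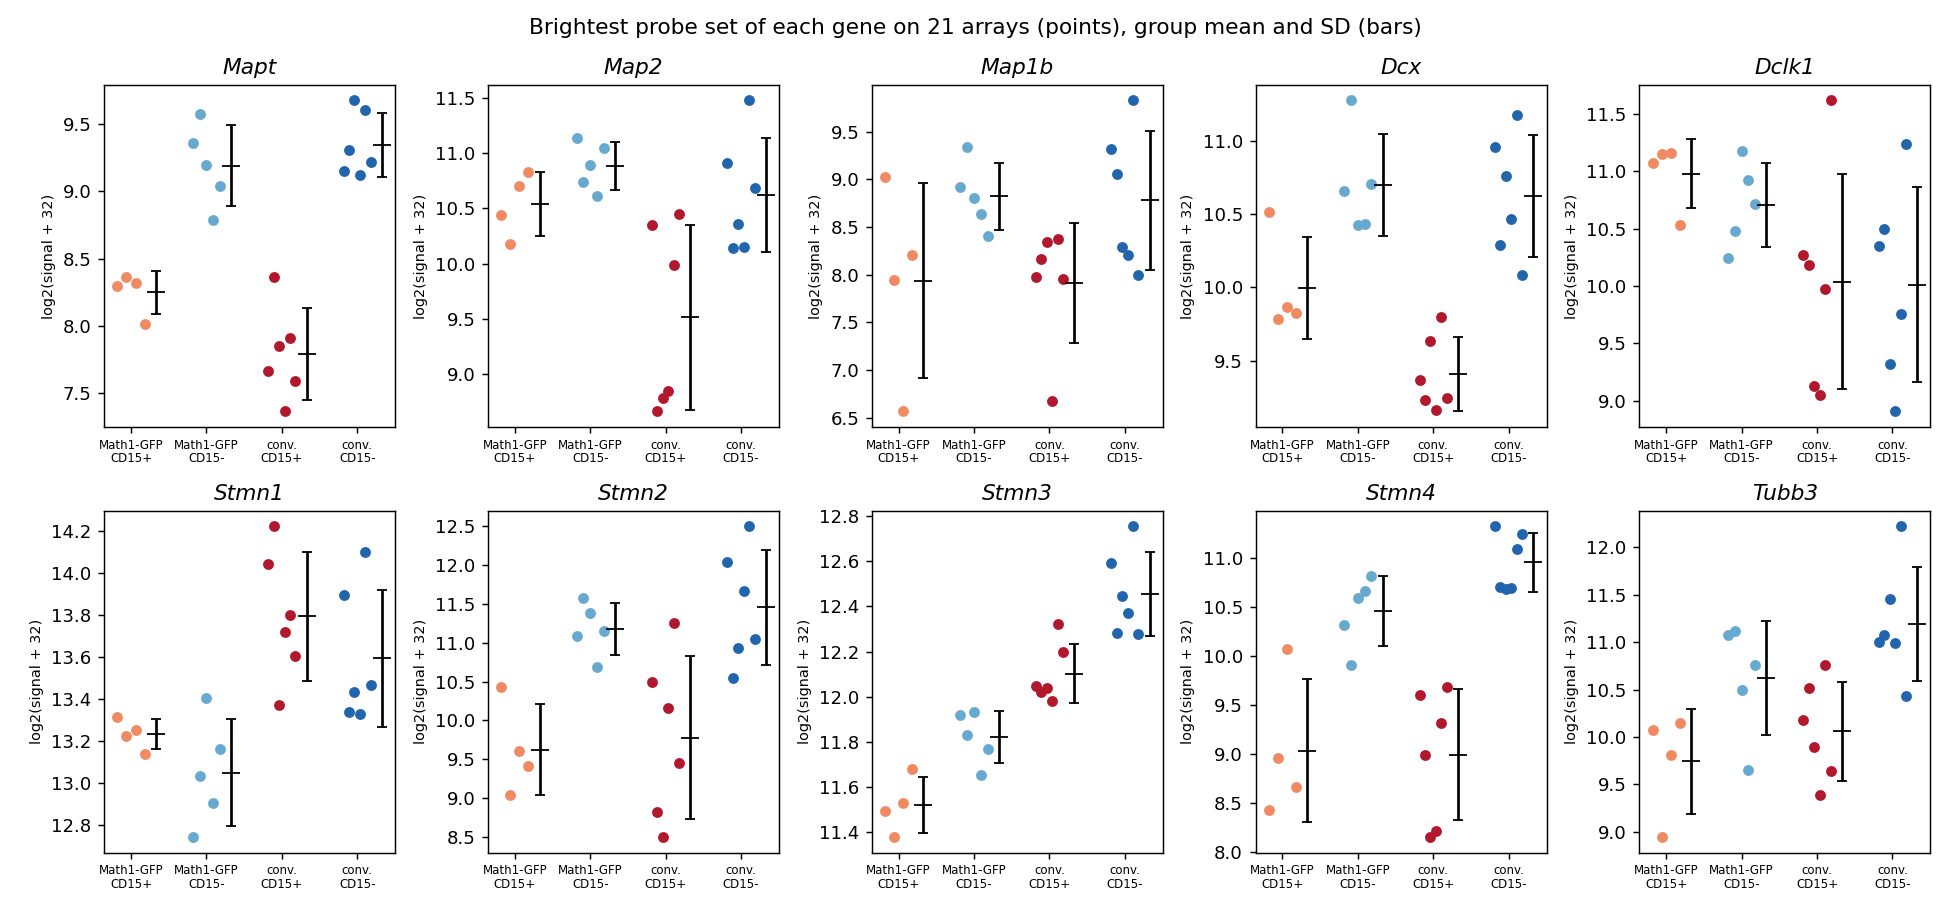
The y axis of each panel is log2(signal + 32) of the brightest probe set of a gene; each point is 1 of 21 arrays, and the bars give the group mean and SD. CD15 positive groups stand left of their CD15 negative groups. The groups of Mapt separate in both tumour types, and those of Dclk1 and Stmn1 overlap in both CD15 comparisons.

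The microtubule-stabilising proteins come first. Tau (Mapt), the axonal protein, had signals of 133 to 297 (median 185) on the 6 conventional CD15 positive arrays, against 525 to 785 (median 581) on the 6 CD15 negative arrays. Every CD15 positive array was below every CD15 negative one, and the difference was -1.55 ± 0.16 (SE, adjusted p = 8.6e-06), or 2.93-fold. The 3 dimmer Mapt probe sets fell as well, by 1.59 ± 0.21 (SE, adjusted p = 2.0e-04), 1.24 ± 0.19 (adjusted p = 6.7e-04) and 0.60 ± 0.15 (adjusted p = 0.016) on the log2 scale. None of the 4 overlapped between the groups.

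Map2, which stabilises microtubules in dendrites, had signals of 373 to 1363 (median 706) in CD15 positive cells, against 1097.5 to 2822 (median 1449) in CD15 negative cells. The groups overlapped: the unnumbered CD15 positive array (1277) and array 6 (1363) lay above the lowest CD15 negative array. Arrays 2, 3 and 4 were the lowest of the CD15 positive cells. The difference was -1.11 ± 0.30 (SE, adjusted p = 0.025). Leaving out array 2, 3 or 4 of the CD15 positive cells (adjusted p = 0.065, 0.062 and 0.067) or array 5 of the CD15 negative cells (adjusted p = 0.074) ended the Map2 call. Of the 3 other Map2 probe sets, 1440699_at fell (-0.84, adjusted p = 0.037), while 1421328_at (-0.55, adjusted p = 0.16) and 1421327_at (-0.68, adjusted p = 0.064) were not called.

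Map1b, a stabiliser of growing axons, had signals of 69.9 to 300 (median 237) in CD15 positive cells, against 223 to 877 (median 391) in CD15 negative cells. Its groups overlapped and the difference of -0.87 ± 0.37 (SE) was not called (adjusted p = 0.17). Of its dimmer probe sets, 1421851_at fell (-0.54, adjusted p = 0.046) and 1421850_at did not pass (-0.24, adjusted p = 0.45).

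Doublecortin (Dcx) had signals of 542 to 857 (median 602) in CD15 positive cells, against 1053 to 2285 (median 1546) in CD15 negative cells. There was no overlap. The difference was -1.22 ± 0.19 (SE, adjusted p = 6.7e-04), or 2.33-fold. Of its 3 dimmer probe sets, 1418141_at (-1.07, adjusted p = 0.0091) and 1448974_at (-0.65, adjusted p = 0.0099) fell, and 1418140_at was not called (-0.45, adjusted p = 0.17).

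Dclk1, which carries doublecortin domains in its long forms and lacks them in short ones, gave different answers by probe set. Its brightest probe set had signals of 499 to 3107 (median 1054) in CD15 positive cells, against 448 to 2376 (median 1052) in CD15 negative cells. The groups spanned nearly the same range, and the difference was 0.03 ± 0.38 (SE, adjusted p = 0.98), with a 95% interval of -0.77 to 0.82. The next 3 probe sets by brightness had differences of 0.015, 0.016 and 0.068.

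A pair of dimmer Dclk1 probe sets behaved otherwise. Probe set 1435940_at had signals of 13.8 to 60.4 (median 29.1) in CD15 positive cells, against 80.8 to 227 (median 129) in CD15 negative cells, and fell by 1.42 ± 0.25 (SE, adjusted p = 0.0018). Probe set 1450863_a_at had signals of 20.6 to 49.3 (median 25.9) in CD15 positive cells, against 56.4 to 140 (median 70.4) in CD15 negative cells, and fell by 0.88 ± 0.16 (SE, adjusted p = 0.0020). Neither overlapped between the groups, and both were chosen for description after their values were seen. The remaining 2 tested probe sets (-0.09 and -0.19) were not called, and 1 did not pass the filter. Which transcript each probe set reports was not tested.

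**Figure D2:**
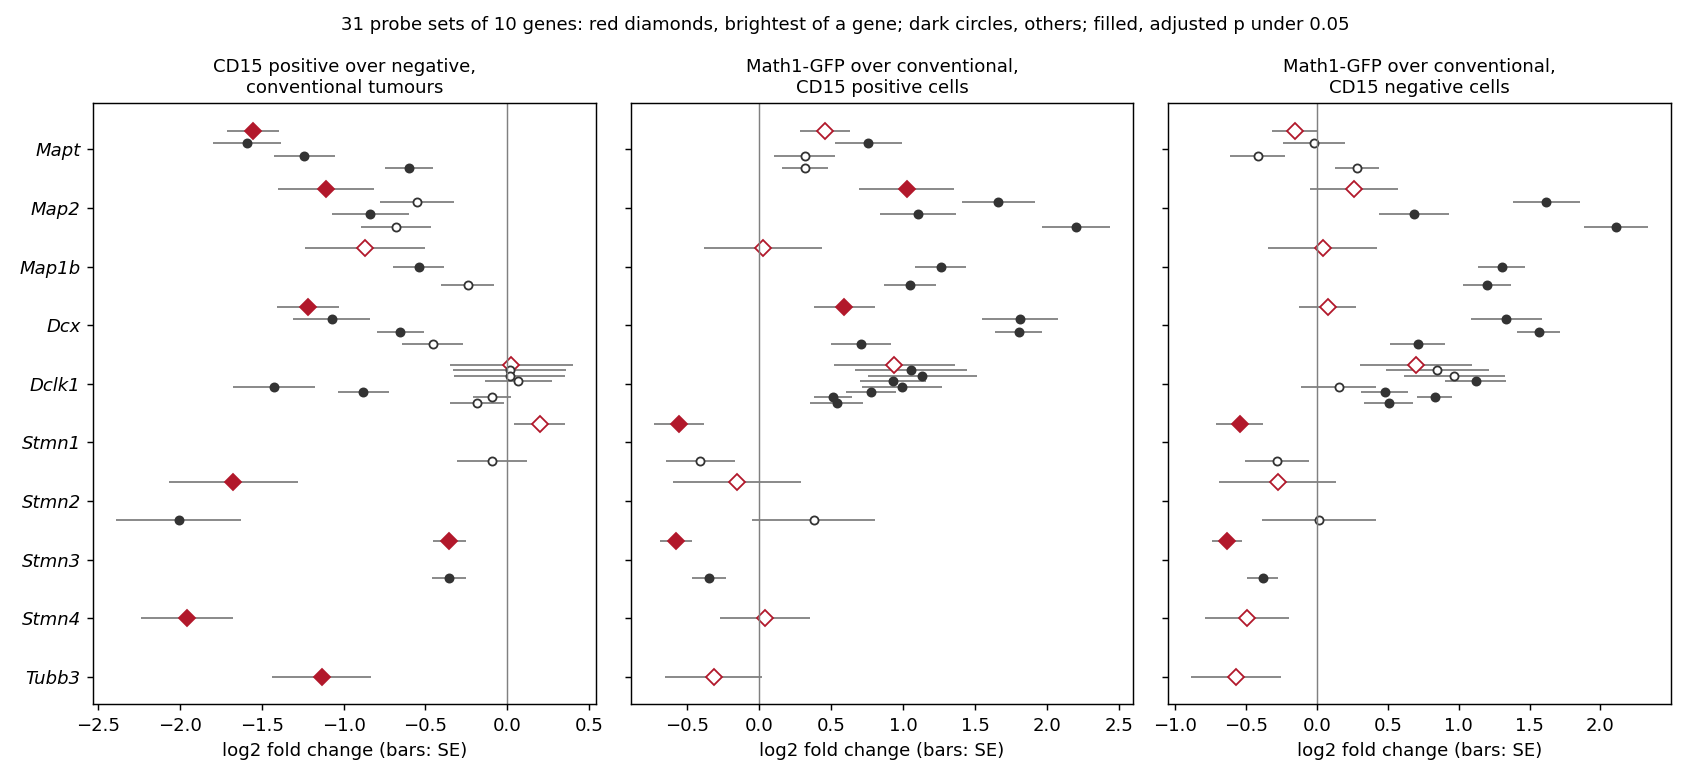
Log2 fold changes (x axes, bars show the SE) of the 31 tested probe sets, grouped by gene on the y axis, for CD15 positive over negative cells of conventional tumours and for Math1-GFP over conventional tumours in CD15 positive and in CD15 negative cells. Red diamonds are the brightest probe set of a gene, dark circles the others, and filled symbols passed an adjusted p of 0.05; the Dclk1 probe sets split on the left, and dimmer Map2, Map1b and Dcx probe sets lie right of the brightest ones in the tumour type comparisons.

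Among the stathmins, Stmn4 had the largest difference of the 10 genes. Its signals were 253 to 789 (median 541) in CD15 positive cells, against 1606 to 2526 (median 1890) in CD15 negative cells. The groups did not overlap, and the difference was -1.96 ± 0.28 (SE, adjusted p = 3.4e-04), or 3.88-fold. Stmn2, a stathmin of growing axons, had signals of 330 to 2419 (median 888) in CD15 positive cells, against 1459 to 5753 (median 2643) in CD15 negative cells. Its groups overlapped through CD15 positive array 5 alone, and the difference was -1.67 ± 0.40 (SE, adjusted p = 0.012). Its second probe set, 1423280_at, fell by 2.01 ± 0.38 (SE, adjusted p = 0.0033).

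Stmn3 changed least of the 7 called genes, with signals of 4014 to 5094 (median 4187) in CD15 positive cells, against 4936 to 6885 (median 5411) in CD15 negative cells. The difference was -0.35 ± 0.10 (SE, adjusted p = 0.029), and the second probe set gave -0.36 ± 0.10 (adjusted p = 0.047). The Stmn3 call was lost on leaving out any of these: either unnumbered array, array 2, 3 or 4 of the CD15 positive cells, or array 5 of the CD15 negative cells (adjusted p = 0.056 to 0.082). Stmn1 had signals of 10548 to 19108 (median 13838) in CD15 positive cells, against 10241 to 17543 (median 11148) in CD15 negative cells. These ranges overlapped nearly fully; the difference was 0.20 ± 0.16 (SE, adjusted p = 0.50), with a 95% interval of -0.12 to 0.52, and its second probe set gave -0.09 ± 0.21 (adjusted p = 0.87). Under quantile normalization the Stmn1 difference had the other sign (-0.13, adjusted p = 0.41).

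Tubb3 had signals of 637 to 1698.5 (median 1025) in CD15 positive cells, against 1346 to 4753 (median 2072) in CD15 negative cells. The groups overlapped. The difference was -1.13 ± 0.30 (SE, adjusted p = 0.024). Leaving out array 4 of the CD15 positive cells (adjusted p = 0.066), or array 3 (0.0504) or 5 (0.072) of the CD15 negative cells, ended the Tubb3 call. Without CD15 negative array 5, which had the highest signal of its group for 7 of the 10 genes, and likewise without CD15 positive array 4, which had the lowest for 6, 4 of the 10 genes were called: Mapt, Dcx, Stmn2 and Stmn4.

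Over probe sets in place of genes, 18 of 31 were called, all of them lower, where 3.84% of all 23211 probe sets tested were lower. Of the 31, 9 were lower without overlap, against 2.12% of all probe sets. The 31 are not independent, since up to 8 report the same gene, and the brightest probe sets of Stmn1 and Stmn3 are of kinds that can bind related transcripts.

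Conventional arrays that share a title number were also compared within the number. Deviations from the group means correlated at 0.583 to 0.757 within the 5 same-numbered pairs and at -0.555 to 0.477 between numbers, so the numbers were taken to pair the samples. Counting the unnumbered arrays as a further pair, Mapt, Map2, Dcx, Stmn2, Stmn3, Stmn4 and Tubb3 were lower in the CD15 positive array of 6 of 6 pairs. In the 5 numbered pairs alone, these 7 genes were likewise lower in all 5, where 16% of all genes were. No such share was taken over 6 pairs. Mapt differed by -0.94 (pair 2) to -1.82 (pair 3), Stmn4 by -1.56 (pair 6) to -2.52 (pair 3) and Stmn2 by -1.24 (pair 5) to -2.43 (pair 3). Dcx differed by -0.84 (pair 6) to -1.59 (the unnumbered arrays). Map1b was lower in 5 of 6 pairs, Dclk1 in 3 and Stmn1 in 2. Map2, whose groups overlapped widely, differed by -0.24 (pair 6) to -1.57 (pair 3), and with the pair as a replicate block its adjusted p was 8.2e-04. The fit with this block called 7 of the 10 genes, as did the fit without it. The SEs, adjusted p-values and lost calls given above come from fits without the block.

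**Figure D3:**
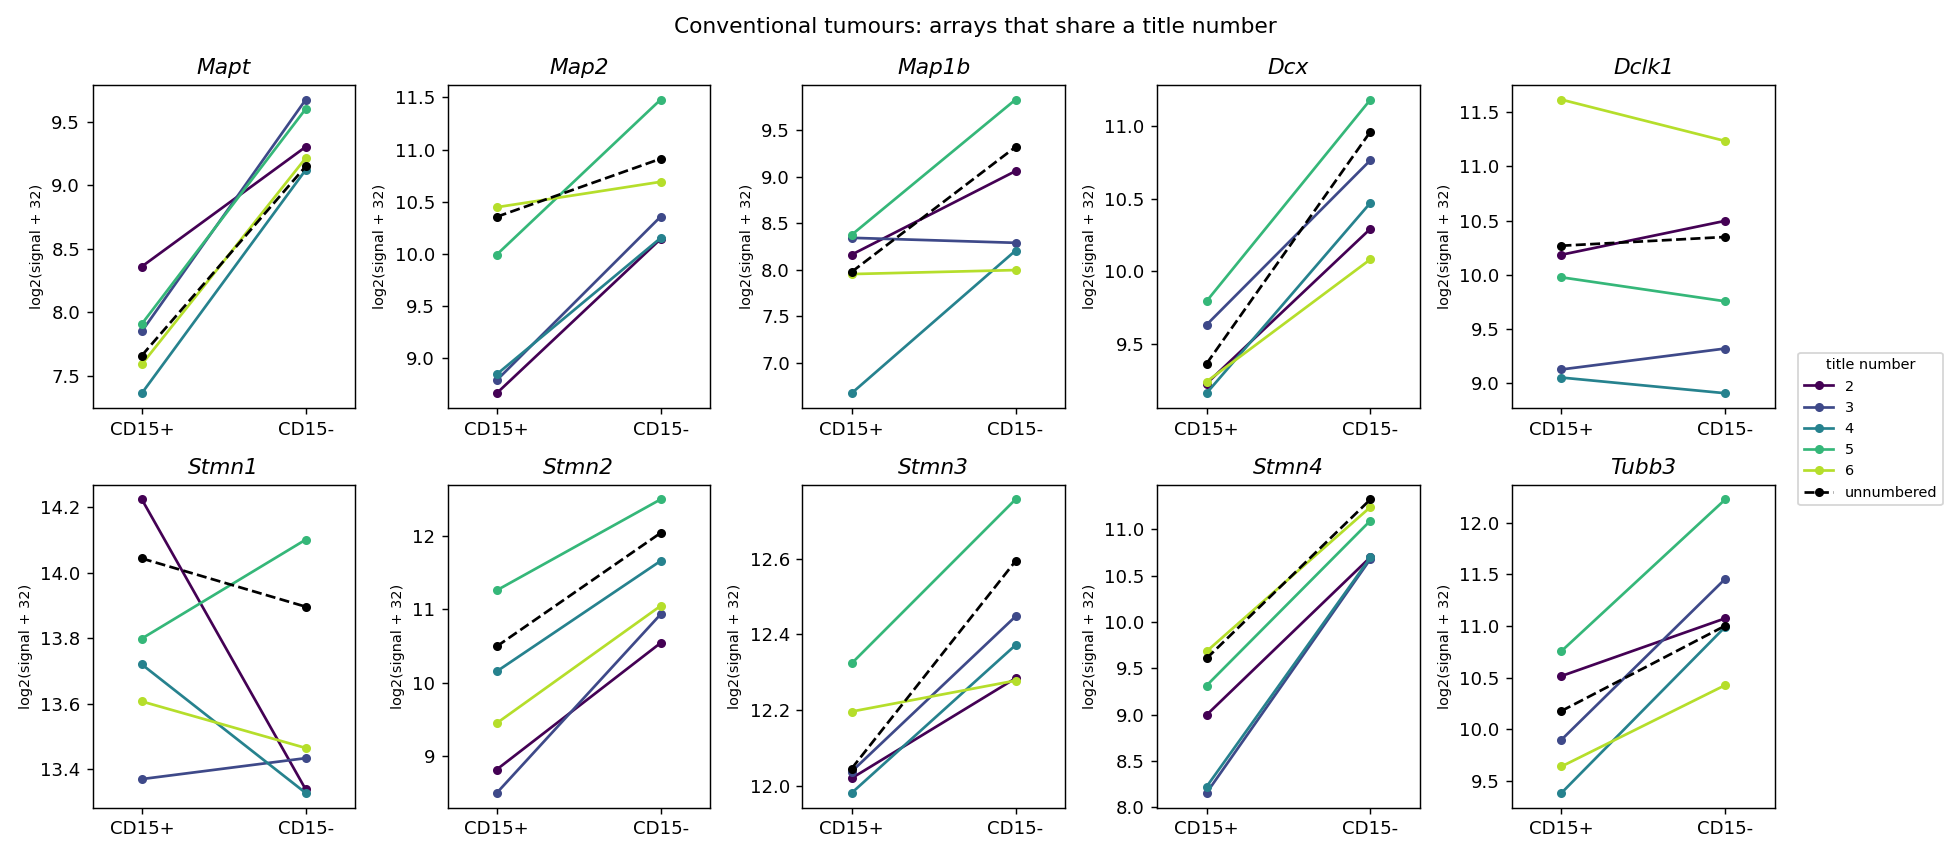
The y axis is log2(signal + 32); each line joins the CD15 positive array (left) and the CD15 negative array (right) of a conventional title number, and the dashed line joins the unnumbered arrays. The lines of Mapt, Map2, Dcx, Stmn2, Stmn3, Stmn4 and Tubb3 are lower on the left in 6 of 6 pairs, and those of Dclk1 run nearly level.

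Other genes of the microtubule system were counted in the same comparison, in which 5.09% of all genes were lower and 3.05% higher. Of 13 measured tubulins of 15 listed, 2 fell and 1 rose: Tubb4a (-1.08 ± 0.15, SE, adjusted p = 2.5e-04) and Tubb2a (-1.04 ± 0.31, adjusted p = 0.039), both neuronal beta-tubulins, fell, and Tubb4b rose (0.75 ± 0.18, adjusted p = 0.012). Tubb2b was at -0.56 (adjusted p = 0.17), and the median of the list was 0.16. Of 15 measured of 16 other structural microtubule-associated proteins, Map9 alone was called (-0.54, adjusted p = 0.014), and Map7d1 (-0.35, adjusted p = 0.081), Map7 (-0.43, adjusted p = 0.085) and the Dclk1 relative Dclk2 (-0.48, adjusted p = 0.11) were not.

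Of 20 measured of 21 end-binding, severing and dynein regulators, 7 fell and 1 rose. The end-binding protein Mapre3 (-1.02 ± 0.18, SE, adjusted p = 0.0019) and the minus-end binders Camsap2 (-0.56, adjusted p = 0.0040) and Camsap3 (-0.71, adjusted p = 0.0048) fell. The dynein regulator Nde1, which also acts in mitosis, rose (0.90 ± 0.14, adjusted p = 6.7e-04). Of 18 measured of 21 tubulin modifiers and chaperones, the glutamylation enzymes Ttll1 (-0.75, adjusted p = 0.0035) and Ttll11 (-0.57, adjusted p = 0.030) fell, and Atat1, which acetylates alpha-tubulin, was at -0.73 (adjusted p = 0.057), as Agtpbp1 was at -0.49 (adjusted p = 0.11).

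Among 14 measured of 15 kinases and regulators known to act on tau, doublecortin or stathmins, 4 fell and 1 rose. The Cdk5 activator Cdk5r1 (-1.11 ± 0.17, SE, adjusted p = 5.3e-04), the neuronal JNK gene Mapk10 (-1.50 ± 0.24, adjusted p = 6.7e-04) and the tau kinase Mark1 (-0.53 ± 0.10, adjusted p = 0.0033) fell. The mitotic kinase Cdk1, which phosphorylates stathmin 1 in dividing cells, rose (0.91 ± 0.17, adjusted p = 0.0028). All 9 measured mitosis markers were higher in the same cells, with a median difference of 0.82.

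In Math1-GFP tumours the same CD15 comparison called 0 of the 10 genes (limma), where 0.0404% of all genes were called. At an unadjusted p under 0.05, 6 of the 10 passed, against 8.68% of all genes. Their differences were negative for 8 of 10, with a median of -0.79, against 0.0048 over all genes. Mapt and Stmn2 did not overlap between the groups, 2 of 10 genes, where 2.78% of all genes were lower without overlap. Over probe sets, 0 of 31 were called, as were 0% of all probe sets, and 6 were lower without overlap, against 2.55% of all.

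Mapt had signals of 283, 298, 287 and 227 on the Math1-GFP CD15 positive arrays, against 730, 553, 409, 493 and 623 on the CD15 negative arrays. The highest CD15 positive array lay below the lowest CD15 negative one, and the difference was -0.94 ± 0.18 (SE, adjusted p = 0.061). The Mapt adjusted p fell below the threshold without conventional CD15 positive array 2 (0.035), conventional CD15 negative array 5 (0.036) or 6 (0.049), or Math1-GFP CD15 negative array 6 (0.0496), and was 0.25 without Math1-GFP arrays 1 and 2. The second Mapt probe set, 1424718_at, also separated the groups (-0.82, adjusted p = 0.22).

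Stmn2 had signals of 1348, 495, 747 and 651 on CD15 positive arrays, against 3013, 2635, 1622, 2236 and 2145 on CD15 negative arrays, with no overlap. The difference was -1.55 ± 0.47 (SE, adjusted p = 0.19). Stmn4 had signals of 314, 468, 1047 and 374 on CD15 positive arrays, against 930, 1512, 1592, 1764 and 1246 on CD15 negative arrays. Here CD15 positive array 7 exceeded the lowest CD15 negative array, and the difference was -1.42 ± 0.33 (SE, adjusted p = 0.098). Dcx had signals of 1433, 850, 899 and 877 on CD15 positive arrays, against 2451.5, 1345, 1351, 1639 and 1586 on CD15 negative arrays. CD15 positive array 1 alone reached into the CD15 negative range, and the difference was -0.70 ± 0.22 (SE, adjusted p = 0.23).

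In Math1-GFP tumours the other 6 genes overlapped between the fractions. Tubb3 was at -0.88 ± 0.35 (SE, adjusted p = 0.42), Map1b at -0.88 ± 0.43 (adjusted p = 0.58), Map2 at -0.35 ± 0.35 (adjusted p = 0.86) and Stmn3 at -0.30 ± 0.11 (adjusted p = 0.38). Dclk1 was at 0.27 ± 0.44 (adjusted p = 0.93) and Stmn1 at 0.18 ± 0.18 (adjusted p = 0.86). The Dclk1 probe set 1450863_a_at, which fell in conventional tumours, had signals of 75.7, 51.3, 95.8 and 67.9 on CD15 positive arrays. On CD15 negative arrays they were 149, 120, 99.6, 116 and 132, with no overlap and a difference of -0.58 ± 0.18 (SE, adjusted p = 0.27). Probe set 1435940_at, which fell further in conventional tumours, overlapped between the Math1-GFP fractions. It had 61.2 to 197 in CD15 positive and 77.3 to 269 in CD15 negative cells, and a difference of -0.58 ± 0.29 (SE, adjusted p = 0.66). In each of the 5 lists of other microtubule genes, 0 genes were called.

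The count in Math1-GFP tumours differed between settings. Fitted on the Math1-GFP arrays alone, 0 of the 10 genes were called, and likewise 0 with the numbered conventional arrays and no block. With the conventional pairs as a replicate block, 3 of the 10 genes were called: Stmn2 (adjusted p = 0.011), Mapt (adjusted p = 0.017) and Stmn4 (adjusted p = 0.025), and 173 of all genes. No title number occurs in both Math1-GFP fractions, so no Math1-GFP arrays were paired, and whether any share a tumour is not given. The block therefore changed only the shared spread and not the Math1-GFP differences. It took the spread between pairs out of the conventional arrays, while the unpaired Math1-GFP comparison kept its spread between arrays. The Math1-GFP adjusted p-values with the block may thus be too small, and no conclusion is drawn from these calls. With array weights 4 were called, these and Dcx (adjusted p = 0.037). Beyond this change of the shared spread under the block, why the count differed was not tested.

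**Figure D4:**
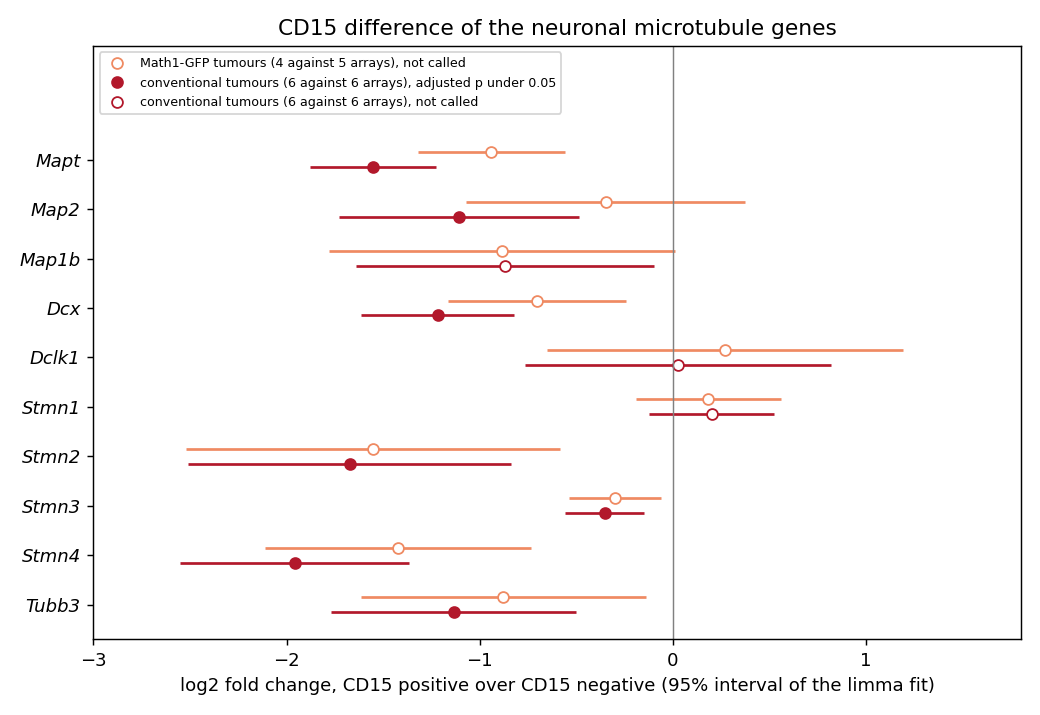
The x axis gives the log2 fold change of CD15 positive over CD15 negative cells with the 95% interval of the limma fit, for Math1-GFP (upper, orange) and conventional tumours (lower, red) of each gene on the y axis. Filled points passed an adjusted p of 0.05; 8 of 10 genes lie left of 0 in each tumour type and Dclk1 and Stmn1 lie right of it (Stmn1 left of it in conventional tumours under quantile normalization).

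Whether the CD15 difference itself differed between the tumour types was tested as an interaction. It was called for 0 of the 10 genes and 0% of all genes (limma), and for 0 of the 10 under each alternative. At an unadjusted p under 0.05, 1 of 10 passed, against 2.26% of all genes. That gene was Mapt, with CD15 differences of -0.94 in Math1-GFP and -1.55 in conventional tumours and an interaction of 0.61 ± 0.24 (SE, unadjusted p = 0.019, adjusted p = 0.9998). The intervals of the other genes were wide: the 95% interval ran from -0.19 to 1.71 for Map2, from -1.16 to 1.40 for Stmn2 and from -0.26 to 0.37 for Stmn3.

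The tumour types were then compared within each CD15 fraction, on the same arrays as the CD15 comparisons. Math1-GFP and conventional tumours form separate array sets in the titles, so tumour type and array set cannot be told apart. In CD15 positive cells 4 of the 10 genes were called (Map2 and Dcx higher, Stmn1 and Stmn3 lower in Math1-GFP), where 23.1% of all genes were called, 12.2% lower and 10.9% higher. Under quantile normalization 35.3% of all calls were higher, against 47.2% as deposited, and 2 of the 10 genes were called. Of 9 measured microglia markers 4 were lower in Math1-GFP CD15 positive cells (list median -1.52). Of 6 measured oligodendrocyte lineage markers 2 were higher and 0 lower in the same cells (list median 0.66). The part of both lists was not tested. In CD15 negative cells 2 of the 10 were called (Stmn1 and Stmn3, both lower), where 18.4% of all genes were called, 10.5% lower and 7.91% higher. In the same cells 4 of 8 mural cell and fibroblast markers were lower (list median -1.32), with summed signals of 224 to 376 in Math1-GFP and 277 to 4647 in conventional tumours, and microglia markers had a median of -1.26 with 0 of 9 called; their part was not tested.

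Stmn3 was lower in Math1-GFP tumours in both fractions. Its signals were 2850, 2628, 2925 and 3251 on Math1-GFP CD15 positive arrays, against 4014 to 5094 (median 4187) on conventional CD15 positive arrays. They were 3614, 3877, 3185, 3457 and 3843 on Math1-GFP CD15 negative arrays, against 4936 to 6885 (median 5411) on conventional CD15 negative arrays. Neither pair of groups overlapped, where 9.56% and 6.64% of all genes were lower without overlap. The differences were -0.58 ± 0.11 (SE, adjusted p = 8.6e-04) and -0.63 ± 0.10 (adjusted p = 3.2e-04), and under quantile normalization the Stmn3 difference in CD15 positive cells was -0.26 and not called (adjusted p = 0.099).

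Stmn1 had signals of 10154, 9540, 9726 and 8980 on Math1-GFP CD15 positive arrays, against 10548 to 19108 (median 13838) on conventional CD15 positive arrays. It was at 8351, 10808, 7617, 9137 and 6809 on Math1-GFP CD15 negative arrays, against 10241 to 17543 (median 11148) on conventional CD15 negative arrays. The groups separated in the CD15 positive fraction and overlapped in the other. The Stmn1 differences of -0.56 ± 0.17 (SE, adjusted p = 0.025) and -0.54 ± 0.16 (adjusted p = 0.025) did not keep their sign under quantile normalization, where they were 0.13 (adjusted p = 0.30) and 0.00021 (adjusted p = 0.999). The second Stmn1 probe set, 1448113_at, was at -0.41 (adjusted p = 0.22) and -0.28 (adjusted p = 0.39), not called in either fraction. Stmn1 also lost its call without Math1-GFP CD15 positive array 5 or 9 or conventional CD15 positive array 2 (adjusted p = 0.054 to 0.064), and in the CD15 negative fraction without Math1-GFP array 6 or 10 or conventional array 5 or the unnumbered array (adjusted p = 0.052 to 0.072).

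Map2 had signals of 1354, 1129, 1635 and 1794 on Math1-GFP CD15 positive arrays, against 373 to 1363 (median 706) on conventional CD15 positive arrays. The highest conventional array lay just above the second lowest Math1-GFP one, and the difference was 1.03 ± 0.33 (SE, adjusted p = 0.031). The unnumbered conventional array (1277) and array 6 (1363) lay within the Math1-GFP range. With only these as conventional CD15 positive arrays, the Map2 difference was 0.14. The Map2 call was lost without Math1-GFP CD15 positive array 1, 7 or 9 or conventional CD15 positive array 2, 3 or 4 (adjusted p = 0.053 to 0.088). Dcx was just inside the threshold (0.59 ± 0.21, adjusted p = 0.0499) and lost its call when most of the arrays were left out one at a time (adjusted p up to 0.19, without Math1-GFP CD15 positive array 1).

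Dimmer probe sets of Map2, Map1b and Dcx placed Math1-GFP tumours higher than the brightest ones did. In CD15 negative cells, the brightest Dcx probe set had a difference of 0.08 ± 0.20 (SE, adjusted p = 0.82), while 1418141_at had 1.34 (adjusted p = 5.2e-04), 1448974_at 1.56 (adjusted p = 9.9e-07) and 1418140_at 0.71 (adjusted p = 0.012). Probe set 1448974_at had signals of 275, 168, 157, 218 and 173 on Math1-GFP CD15 negative arrays, against 34.4 to 56.3 (median 45.4) on conventional CD15 negative arrays. These groups did not overlap, while those of the brightest probe set did.

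Map2 and Map1b gave the same picture in CD15 negative cells. The brightest Map2 probe set was at 0.26 (adjusted p = 0.58), and 1421327_at, 1421328_at and 1440699_at were at 2.11 (adjusted p = 2.0e-06), 1.62 (adjusted p = 4.7e-05) and 0.69 (adjusted p = 0.047). The brightest Map1b probe set was at 0.04 (adjusted p = 0.95), and 1421851_at and 1421850_at were at 1.305 (adjusted p = 1.3e-05) and 1.20 (adjusted p = 3.8e-05). Over all tested probe sets of the 10 genes, 12 of 31 were called higher and 3 lower in CD15 negative cells, where 15.3% and 8.32% of all probe sets were. In CD15 positive cells 18 of 31 were called higher and 3 lower, where 16.8% and 9.37% of all probe sets were; all 8 tested Dclk1 probe sets had positive differences and 7 were called, not the brightest one (0.94 ± 0.42, SE, adjusted p = 0.11). As a gene in the fit over genes, Dclk1 was called on leaving out conventional CD15 positive array 6 (1.25, adjusted p = 0.018), and Mapt on leaving out conventional CD15 positive array 2 (0.57, adjusted p = 0.018).

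The disagreement was not limited to these genes. Over the 6122 genes with several tested probe sets, the probe sets that were not the brightest were called higher in Math1-GFP CD15 negative cells in 22.8% of cases, against 11.8% for the brightest ones. In CD15 positive cells the shares were 23.0% and 15.2%. For 2 of 4 control transcripts with probe sets at both ends, the ratio of the ends also separated the tumour types. The log2 ratio of the 3' to the 5' probe set of pyruvate carboxylase was 1.16 to 1.85 on Math1-GFP CD15 positive arrays, against 2.36 to 3.69 on conventional CD15 positive arrays, and 0.82 to 1.39 on Math1-GFP CD15 negative arrays, against 2.81 to 3.53 on conventional CD15 negative arrays. The Gapdh ratio was -0.54 to -0.38 over both Math1-GFP groups, against -0.35 to -0.05 over both conventional groups, also without overlap, while the ratios of beta-actin and the transferrin receptor overlapped. The part of this difference in the Map2, Map1b and Dcx values was not tested.

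**Figure D5:**
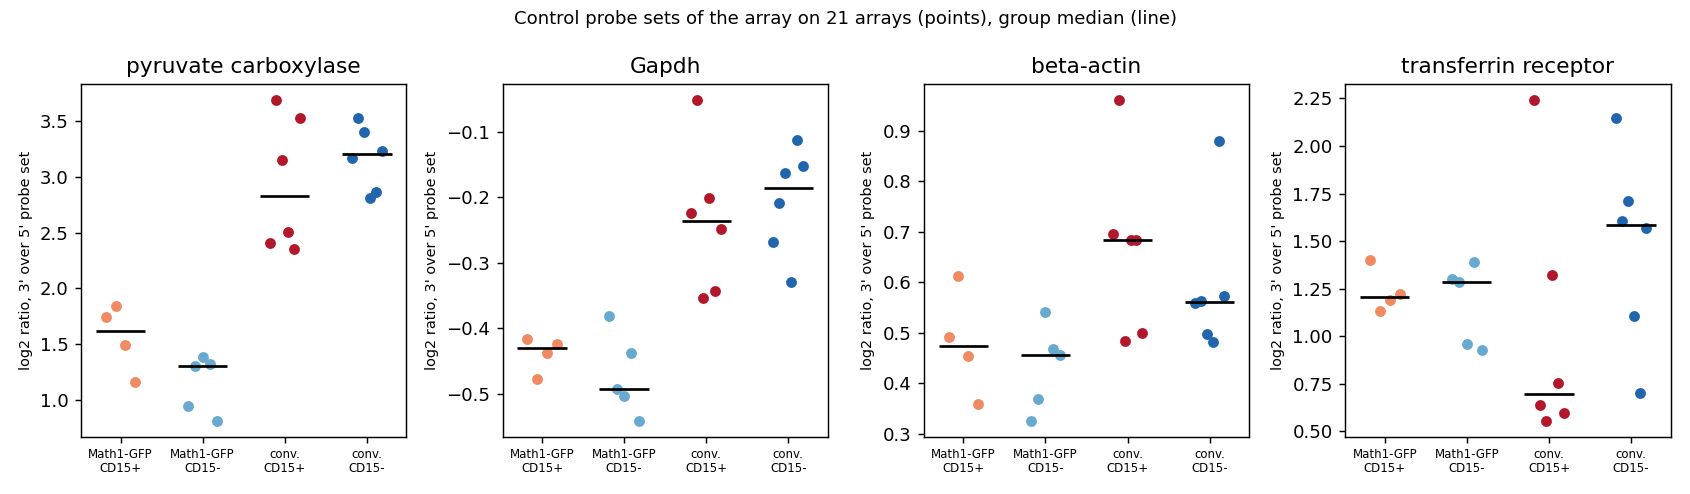
The y axes give the log2 ratio of the 3' over the 5' control probe set of 4 transcripts; points are the 21 arrays by group and lines the group medians. The ratios of pyruvate carboxylase and Gapdh are lower on all Math1-GFP arrays than on all conventional arrays.

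The genes also differed in how much arrays of a group varied. Within conventional CD15 positive cells, Stmn2 had an SD of 1.05 and Dclk1 of 0.93 on the log2 scale, against 0.25 for Dcx and 0.13 for Stmn3 (n = 6). Within Math1-GFP CD15 positive cells, Map1b had an SD of 1.02 and Mapt of 0.16 (n = 4). Stmn3 was thus called in conventional tumours at -0.35, while Map1b at -0.87 was not.

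For each of the 10 genes the other genes with the most similar course over the 21 arrays were listed, by the root mean square difference of log2 profiles centred on their means. For Mapt these were Mmp24 (0.28), Apc2 (0.29) and Nol4l (0.30), against an SD of 0.73 of Mapt itself. For Dcx they were Pkia (0.22), the Cdk5 activator Cdk5r1 (0.23) and Mast1 (0.25), with an SD of 0.64. For Stmn1 they were the actin gene Actg1 (0.099), the tubulin Tuba1a (0.099) and the ribosomal protein gene Rps24 (0.10), with an SD of 0.39. Map2 was closest to Sema6a, Tub and Nhlh2 (0.27 to 0.28). Stmn4 and Stmn2 had larger differences from their closest genes, and larger SDs of their own (1.02 and 1.09). Their closest genes were Wscd2 (0.49), Add2 (0.51) and Plppr3 (0.52) for Stmn4, and 6330403K07Rik (0.54), Plppr3 (0.54) and Synpr (0.55) for Stmn2. Stmn3 was closest to Pafah1b3, Ociad1 and Golgb1 (0.14 to 0.15), Tubb3 to Nxph4, Mllt11 and Igsf8 (0.38 to 0.39), Dclk1 to Kbtbd2, Dock3 and Srd5a3 (0.39 to 0.42) and Map1b to Ints6, Chd7 and Gprin3 (0.44 to 0.46). None of the 10 genes was among the 3 closest of another. The measure also counts the size of the variation, and the SDs of the 10 genes ran from 0.37 (Stmn3) to 1.09 (Stmn2). It therefore does not show whether the 10 genes rise and fall together.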

How the data were processed

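RNA of sorted tumour cells had been hybridised to 21 arrays of 45101 probe sets. The authors deposited linear intensities per probe set, whose software, background correction and normalization are not given in the sources used here. Every array has a trimmed mean of 150.0. They were used as deposited, as log2(signal + 32). The 64 control probe sets and probe sets in the dimmest 40% by mean log2 value (under a signal of 15.5) were left out. The platform annotation gave 1 gene symbol to 34945 probe sets, several to 932 and none to 9160; only the first kind was used, and the brightest probe set stood for a gene.

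Groups followed the titles. A model of 4 group means was fitted to all 21 arrays with limma 3.58.1 in R 4.3.3 (lmFit and eBayes, 17 residual degrees of freedom), with two-sided p-values, Benjamini-Hochberg adjustment over all genes of a comparison and a threshold of 0.05. There were 5 comparisons. The procedure was tested on simulated data. Conventional title numbers 2 to 6 occur in both fractions; deviations correlated at 0.583 to 0.757 within numbers, and each of 5 CD15 positive arrays was closest to its own number. The number of arrays limits the precision.

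The 10 genes, the lists of other microtubule genes and markers, and the settings were chosen with earlier results of these data known. Named are the 10 genes, up to 4 genes of smallest p per list and the 3 most similar profiles per gene. Alternatives were quantile normalization, a smaller and a larger pseudocount, other filters, averaged or single probe sets, fits of 2 groups, robust estimation, array weights, the replicate block, subsets of the conventional arrays, and leaving out arrays.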

Additional observations from a re-analysis of the deposited data

Results flagged for a closer look

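Among the 40 combinations of a gene and a group, 3 had a single array far from the others by Dixon's criterion, where chance gives about 1 in 20. Gaps and ranges were taken on the log2(signal + 32) scale, while the signals given are linear. Map1b on conventional CD15 positive array 4 was the lowest of its group, with a signal of 69.9, against 216 on the nearest array; the gap was 0.753 of the range. Dcx on Math1-GFP CD15 positive array 1 was the highest of its group (1433, against 899 on the nearest array; 0.894 of the range). Dclk1 on Math1-GFP CD15 positive array 9 was the lowest of its group (1447, against 2115 on the nearest array; 0.855 of the range).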

How the results depend on the processing

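The calls of Mapt, Dcx, Stmn2 and Stmn4 in conventional tumours held under every alternative except the unnumbered arrays and arrays 6 alone, with 4 conventional arrays, where 0 of the 10 genes were called and Mapt had an adjusted p of 0.067. Leaving out each array in turn gave 4 to 7 called genes for the CD15 comparison of conventional tumours, 0 to 1 for that of Math1-GFP tumours, 1 to 4 for the tumour types in CD15 positive cells and 1 to 2 in CD15 negative cells. The replicate block kept 7 called genes in conventional tumours (unnumbered arrays left out or as a pair). Under both versions it gave 3 in Math1-GFP tumours, where arrays were not paired and the p-values may be too small. Over all genes the versions called 1235 and 1707 in conventional tumours, against 1006 without the block. In Math1-GFP tumours they called 173 and 193, against 5. In Math1-GFP tumours 1 gene was called with the larger pseudocount, robust estimation, conventional arrays 2 to 5 only, or the unnumbered arrays and arrays 6 only, and 4 with array weights, with 17, 11, 30, 16 and 187 genes in all. Between tumour types in CD15 positive cells, 6 genes were called with averaged probe sets and 2 under quantile normalization. In the same cells 2 were called without Math1-GFP arrays 1 and 2, and 1 with the unnumbered arrays and arrays 6 only. In CD15 negative cells 1 was called under quantile normalization, with numbered arrays only, and with the unnumbered arrays and arrays 6 only, and 5 with averaged probe sets, among them Dcx, Map2, Map1b and Dclk1, which were higher. Over all genes, 606 were called in conventional tumours without CD15 negative array 5 and 0 with the unnumbered arrays and arrays 6 only. Between tumour types, CD15 positive cells had 2853 called genes and CD15 negative cells 2274, against 818 and 626 with the unnumbered arrays and arrays 6 only, and 3951 in CD15 negative cells with array weights; testing every probe set called 6072 and 5473 probe sets. In the CD15 comparison of conventional tumours, fitting the conventional arrays alone called 5 of the 10 genes and 754 of all genes. The numbered conventional arrays without a block gave 6 and 768. The causes were not tested.

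Some differences changed sign, among them the called Stmn1 differences between tumour types. Under quantile normalization these were Stmn1 (-0.13 for CD15 in conventional tumours, 0.13 in the interaction, 0.13 and 0.00021 between tumour types), Stmn2 (-0.064 in the interaction) and Map1b (-0.076 and -0.022 between tumour types). Pseudocounts moved Map1b to -0.0022 (CD15 positive cells) and 0.034 (interaction). Averaged probe sets gave Dclk1 -0.31 and -0.15 in the CD15 comparisons of conventional and Math1-GFP tumours, Stmn1 -0.018 in Math1-GFP tumours and Stmn2 0.11 between tumour types. Array weights gave Dclk1 -0.016, Stmn2 -0.099 and Map1b -0.19. Conventional arrays 2 to 5 gave Dclk1 -0.035 and Map1b 0.074 and -0.023. The unnumbered arrays and arrays 6 gave Stmn1 0.039, Tubb3 -0.071, Stmn4 -0.61, Map1b -0.026, Dclk1 -0.085 and Mapt 0.0069. Without Math1-GFP arrays 1 and 2, Stmn2 was at -0.048, Map1b at -0.34 and -0.091 and Dcx at -0.068. Leaving out single arrays, Dclk1 ranged from -0.29 to 0.27 for CD15 in conventional tumours. In the interaction Stmn1 ranged from -0.12 to 0.072, Stmn2 from -0.15 to 0.42, Map1b from -0.38 to 0.44, Stmn3 from -0.0072 to 0.10 and Dclk1 from -0.0016 to 0.56. Between tumour types Stmn4 ranged from -0.31 to 0.24, Map1b from -0.34 to 0.48 and -0.12 to 0.25, Stmn2 from -0.42 to 0.14 and Dcx from -0.068 to 0.19.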
